A study of Danio rerio with 2 samples.

Results

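Neutrophils are short-lived phagocytes that leave the blood for sites of damage or infection. They carry granules filled with lysozyme, peroxidase and proteases, make reactive oxygen with a membrane NADPH oxidase, and crawl on a fast-turning actin cytoskeleton. In the zebrafish embryo they arise from the same early myeloid lineage as macrophages, and the gene for lysozyme C, lyz, is among the markers most used for them.

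A sort for macrophages of the zebrafish tail also filled wells with cells of this kind. Single cells were sorted by green fluorescence into 2 plates of 384 wells from tails of embryos at 3 days post-fertilization, and every embryo carried both mpeg1:EGFP, which uses the promoter of the macrophage gene mpeg1, and runx1+23:mCherry, which marks hematopoietic stem and progenitor cells (HSPCs). The first 192 wells of a plate were filled from the EGFP+mCherry+ gate and the others, from well 193 on, from the EGFP+mCherry- gate. The study used red fluorescence in a green cell as a sign that it had taken up material from an HSPC. These are called the mCherry+ and the mCherry- gate below. No allele or treatment separated the groups, and the labels do not say how many embryos were pooled or whether the plates came from separate clutches.

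A well was kept with at least 500 unique molecular identifiers (UMIs, tags that each mark 1 captured RNA molecule) and 200 detected genes, and neutrophil wells were chosen by their lyz counts alone. A well was called one when lyz made up at least 2% of its UMIs with at least 20 lyz UMIs. This rule chose 122 of 534 kept wells out of 768, 78 on plate 1 and 44 on plate 2. They made up 22.8% of kept wells. The other 412 kept wells, with lyz below 2%, are the comparison wells, and 173 of these in which a list of macrophage markers reached 1% of UMIs are called macrophage-marker wells. Because lyz chose the wells, differences between neutrophil and comparison wells are described here and were not tested. Levels are given as CPM, a gene's UMIs scaled to the same total in every well.

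Neutrophil wells held between 830 and 44627 UMIs. The median was 14157 UMIs and 2852 genes in the mCherry+ gate of plate 1, 8497 UMIs and 2085 genes in the mCherry- gate of plate 1, and 8639 UMIs and 2071 genes in the mCherry- gate of plate 2. Only 3 neutrophil wells lay in the mCherry+ gate of plate 2, with 8134, 8520 and 11658 UMIs. Comparison wells had a median of 8819 UMIs on plate 1 and 9020 on plate 2, close to the mCherry- neutrophil wells, and the mCherry+ neutrophil wells of plate 1 were deeper.

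The other markers given for these cells went with the label. npsn, which encodes the metalloprotease nephrosin, was found in every neutrophil well, with a median of 15677 CPM on plate 1 and 17207 on plate 2. srgn, which encodes the granule proteoglycan serglycin, was also found in every one, with medians of 4272 and 4593 CPM. So was mmp13a, a collagenase gene, with medians of 3472 and 4439 CPM. Apart from lyz, 17 genes were matched from a list of neutrophil markers. Of these 15 were seen often enough to be compared. On both plates 15 of 15 had a higher mean in neutrophil wells, against 25.5% of all 6744 genes compared. The list was made with earlier results of these data known, so the count describes the wells and is no independent check of the label. Macrophage markers stayed low. The summed share of 21 macrophage genes had a median of 0.102% of UMIs and a highest value of 0.329% in neutrophil wells of plate 1, and 0.128% and 0.343% on plate 2. In comparison wells the medians were 0.112% and 1.19%, and the highest wells reached 3.65% and 4.58%. No neutrophil well reached 1%. In the neutrophil wells 6 of the 21 genes were at 0 on plate 1 and 8 on plate 2. The marker gene of the sort followed this pattern. Its most abundant copy, MPEG1 (ENSDARG00000055290), had a mean of 22.1 CPM in neutrophil wells against 331 in comparison wells on plate 1, and 27.1 against 617 on plate 2. It was detected in 7.69% and 20.5% of neutrophil wells. The symbol MPEG1 belongs to 3 identifiers in the name table, and reads that fit more than one of them may have been split.

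Both sides of the lyz threshold were thinly filled. The wells just inside held 2.03%, 2.09% and 2.16% lyz, and the wells just outside held 1.79%, 1.75% and 1.73%. All 3 wells just outside were mCherry- wells of plate 1 and contained npsn at 0.939%, 1.89% and 1.28% of UMIs, levels like those of neutrophil wells. The mCherry+ well at 2.09% had only 0.0410% npsn in 17080 UMIs. On plate 1, 9 comparison wells had between 1% and 2% lyz, and they held 49.7% of the npsn share summed over comparison wells. On plate 2 there were 0 such wells. Ratios against comparison wells on plate 1 were therefore taken against wells of which a few resembled neutrophil wells. The median comparison well contained lyz at 0.0641% of UMIs on plate 1 and 0.0367% on plate 2. Macrophage-marker wells had medians of 0.0480% and 0.0291%, and the source of this lyz was not tested.

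Neutrophil wells were scarcer in the mCherry+ gate on both plates. On plate 1, 23 of 143 wells of the mCherry+ gate were neutrophil wells, a share of 16.1% with an exact Clopper-Pearson 95% interval from 10.5 to 23.1%. In its mCherry- gate 55 of 151 were, or 36.4% (28.8 to 44.6%). On plate 2 the count was 3 of 123 in the mCherry+ gate, or 2.44% (0.506 to 6.96%), and 41 of 117 in the mCherry- gate, or 35.0% (26.5 to 44.4%). The mCherry- share was 2.26 times the mCherry+ share on plate 1 and 14.4 times on plate 2. The intervals of the gates did not overlap on either plate. With lyz at 5% or more the shares of plate 1 were 12.6% (7.63 to 19.2%) and 21.2% (14.97 to 28.6%), 1.68 times apart, and these intervals overlapped. Intervals cover counting error only, and 2 plates cannot give an exact test across plates that passes 0.05. The mCherry- shares of the plates were close to each other, whereas the mCherry+ shares were not. The mCherry+ gate differed between plates in its other wells too. Macrophage-marker wells were 27 of its 143 kept wells on plate 1 and 76 of 123 on plate 2. In the mCherry- gate they were 34 of 151 and 36 of 117. The median share of macrophage markers in mCherry+ comparison wells was 0.0377% on plate 1 and 1.47% on plate 2. The plot of lyz by gate shows the neutrophil wells of each gate well by well.

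**Figure D1:**
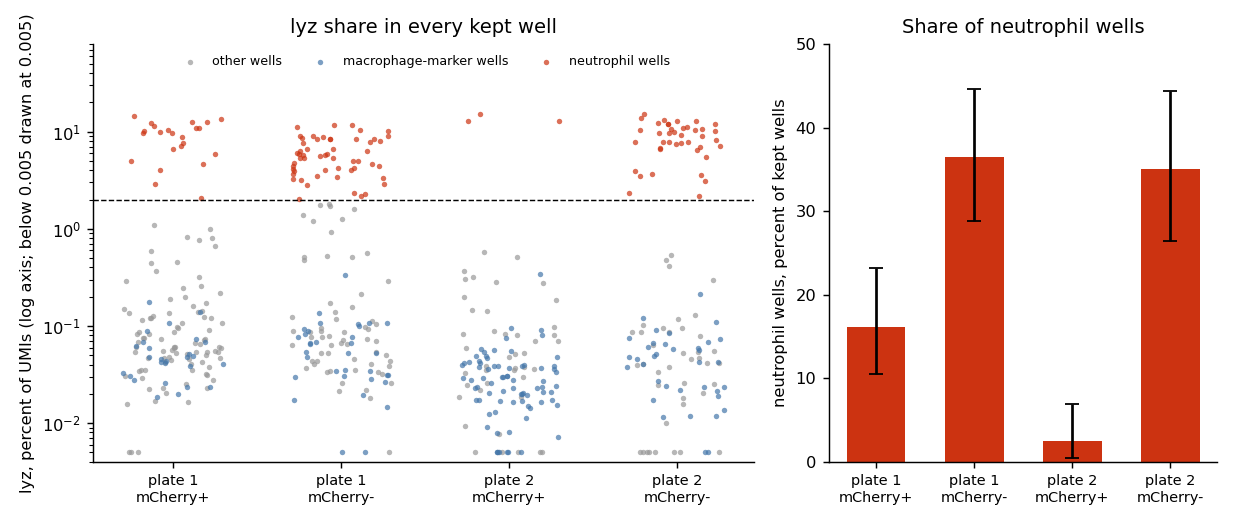
Left, lyz as percent of UMIs (log axis) in each of the 534 kept wells by plate and gate, with the 2% line dashed and each point 1 well. Right, neutrophil wells as percent of kept wells with exact 95% intervals as bars. The mCherry- gate holds 36.4% and 35.0% neutrophil wells, the mCherry+ gate 16.1% and 2.44%.

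Means over wells were then compared gene by gene within each plate, as the log2 ratio of neutrophil over comparison wells after adding 20 CPM to both. The rule asked for a UMI in at least 10% of the wells of either kind on each plate, which 6744 genes met. Of these, 71 were at least 4-fold higher in neutrophil wells on both plates (1.05%) and 105 at least 4-fold lower (1.56%). Of the 6744 genes, 25.5% were higher on both plates by any amount and 52.0% lower. Against macrophage-marker wells alone, 112 of 6413 genes were at least 4-fold higher (1.75%) and 193 lower (3.01%). The median over all 6744 genes was -0.21 on plate 1 and -0.26 on plate 2, so a typical gene was slightly lower in neutrophil wells. Taking lyz out of every well moved these medians to -0.15 and -0.18. lyz alone took 6.84% and 9.01% of the UMIs of the average neutrophil well. Summing UMIs in place of averaging wells gave -0.10 and -0.05. The ratios below are to be read relative to these medians.

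Granule and secreted proteins led the list. lyz itself had a mean of 68376 CPM in neutrophil wells and 1630 in comparison wells on plate 1, and 90085 against 623 on plate 2, which are log2 ratios of 5.37 and 7.13. npsn followed with 15665 against 773 CPM on plate 1 and 16871 against 94.7 on plate 2. CPA1 (ENSDARG00000021339), the symbol that the name table gives to a carboxypeptidase gene, had 3559 against 181 CPM on plate 1 and 3580 against 29.9 on plate 2. EPX (ENSDARG00000019521), a peroxidase gene, had 7380 against 473 CPM on plate 1 and 8830 against 112 on plate 2. For npsn, CPA1 and EPX the level in neutrophil wells was alike on the plates, and the ratio was larger on plate 2 because comparison wells there held less of it. srgn differed from them in this respect, with 296 and 264 CPM in comparison wells and log2 ratios of 3.90 and 4.15.

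Apart from lyz, 12 genes of the granule and secreted list were compared, of which 11 were higher in neutrophil wells on both plates and 8 were at least 4-fold higher. Their median log2 ratio was 2.77 on plate 1 and 3.37 on plate 2. The proteases mmp13a and MMP9 had ratios of 3.48 and 2.95 on plate 1 and 5.77 and 5.37 on plate 2. LECT2 (ENSDARG00000033227), named for a secreted leukocyte chemotaxin, had 3.14 and 2.95, and adam8a, a membrane metalloprotease gene, had 2.68 and 3.49. Also at least 4-fold higher were scpp8, of the secretory calcium-binding phosphoprotein family (2.84 and 3.70), and nccrp1 (2.70 and 3.25). The exception was pglyrp5, which encodes a peptidoglycan recognition protein, at -2.11 and -2.36. A second LECT2 copy (ENSDARG00000090889) reached only 111 CPM on plate 1 and 98.0 on plate 2, and as copies of 1 symbol the pair may share reads.

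Among the 25 genes with the highest ratios on the plate where the ratio was nearer 0, several lay outside the granule list. SMS, which encodes spermine synthase, had log2 ratios of 3.80 and 5.17, and was found in 98.7% of neutrophil wells of plate 1. ch25hl2, a gene related to cholesterol 25-hydroxylase, had 3.78 and 5.09. ABCB9, a lysosomal peptide transporter gene, had 3.62 and 4.13. ctss1, a cathepsin S gene, had 3.38 and 4.89, with 1.72 CPM in comparison wells of plate 2. scinlb, named for the actin-severing protein scinderin, had 3.37 and 3.51. cfbl, named for complement factor B, had 3.27 and 3.84, and the chitinase gene chia.6 had 3.24 and 3.50. VAMP8, a membrane fusion protein of secretory vesicles, had 2.88 and 3.22, and BDH1, an enzyme of ketone body metabolism, had 3.06 and 2.97. The remaining members of this group were si:ch1073-429i10.1, PLPP1 (ENSDARG00000053381), ponzr6, sult5a1 and 3 genes without a symbol, and their ratios on the nearer plate lay between 2.89 and 3.97.

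**Figure D2:**
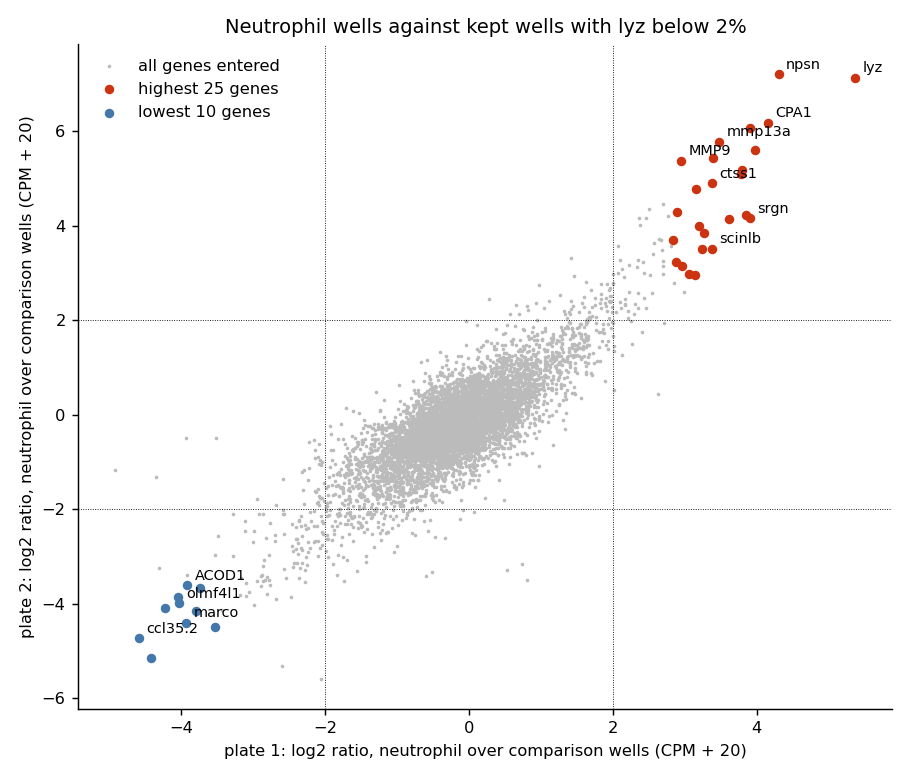
Log2 ratio of mean CPM (plus 20) in neutrophil over comparison wells, plate 1 on the x axis and plate 2 on the y axis, for 6744 genes, with dotted lines at 4-fold. The 25 highest genes (red) lie at 2.84 or more on both plates and the 10 lowest (blue) at -3.53 or less on both. Most red points lie above the diagonal.

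The lowest genes included several macrophage markers. ccl35.2, a chemokine gene, had a mean of 31.1 CPM in neutrophil wells and 1211 in comparison wells on plate 1, and 42.0 against 1619 on plate 2. The scavenger receptor gene marco had log2 ratios of -3.93 and -4.40. ACOD1, the enzyme that makes itaconate in macrophages, had 86.8 against 1593 CPM and 147 against 2010. A pair of MFAP4 copies, used as a macrophage marker in zebrafish, had log2 ratios of -4.42 and -5.14 (ENSDARG00000088745) and -4.23 and -4.09 (ENSDARG00000090783). olmf4l1, tspan36, havcr1, lygl1 and c1ql1 filled the remaining places, with ratios between -3.53 and -4.49.

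Genes for leukotriene synthesis were higher as well. Leukotriene B4 is a lipid signal by which neutrophils recruit each other. LTA4H, the hydrolase that makes it, had 1427 against 242 CPM on plate 1 and 1478 against 294 on plate 2. ALOX5AP, which presents the substrate to the lipoxygenase, had log2 ratios of 2.52 and 2.96, and the lipoxygenase gene ALOX5 had 216 against 79.1 CPM on plate 1 and 195 against 67.4 on plate 2. LTC4S, which leads to the other branch of leukotrienes, was at 0 in neutrophil wells of both plates and averaged 5.81 and 8.48 CPM in comparison wells.

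Genes of the actin cytoskeleton and of adhesion were higher as a group. All 15 compared were higher on both plates, against 25.5% of all genes, with medians of 1.39 and 1.28 and 1 gene past 4-fold. That gene was cfl1l, a cofilin-like gene, with 871 against 118 CPM on plate 1 and 995 against 26.2 on plate 2. actb2 had 50490 against 16781 CPM on plate 1 and log2 ratios of 1.59 and 1.44. ARPC1B, a subunit of the Arp2/3 complex, had 1.67 and 1.28, CORO1A, which encodes coronin, 1.57 and 1.40, and the leukocyte integrin gene itgb2 had 1.16 and 1.09.

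In sugar metabolism most members were higher. GAPDH had ratios of 2.21 and 2.20, and PGD, an enzyme of the pentose phosphate pathway that supplies NADPH, had 1.81 and 1.43. PFKFB3, which sets an activator of glycolysis, was lower, with 14.7 against 159 CPM on plate 1 and 42.2 against 270 on plate 2. Of 10 genes compared, 8 were higher on both plates and 2 lower, against 25.5% and 52.0% of all genes. Their medians were 0.84 and 0.76.

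The NADPH oxidase genes were higher by less. Of the 6 compared, 5 were higher on both plates and 0 lower, against 25.5% and 52.0% of all genes. The medians were 0.69 and 0.75, and the largest ratio was 1.21 for rac2. In wells of the mCherry- gate alone the medians were 0.19 and 0.52, and against macrophage-marker wells alone 0.02 and 0.53. cybb, the catalytic subunit, had 0.60 on plate 1 and -0.15 on plate 2. Against macrophage-marker wells alone cybb had -0.14 and -0.44. Genes of chemotaxis receptors and signal had medians of 0.33 and 0.43. Of 7 compared, 5 were higher on both plates and 1 lower, against 25.5% and 52.0% of all genes. At 4-fold there were 0 of 7, which says little, since 1.05% of all genes were that much higher and 1.56% that much lower. cxcr1 was too rare to be compared, at 4.45 and 2.60 CPM in neutrophil wells, and CXCR4 (ENSDARG00000041959) had 0.30 and 1.04.

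Of 12 transcription factors compared, 3 were higher on both plates and 7 lower, shares close to those over all genes. IRF8, a factor of macrophage fate, was at 0 CPM in neutrophil wells of plate 1 against 51.2 in comparison wells, and at 2.02 against 73.9 on plate 2. SPI1, the myeloid factor PU.1, was higher, with 617 against 281 CPM on plate 1 and 762 against 289 on plate 2, and CEBPA had ratios of 0.69 and 0.38. CEBPB was abundant in both kinds of wells, with 1312 against 1300 CPM on plate 1 and ratios of 0.01 and 0.62.

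Among genes of pattern recognition and inflammation the median was 0.01 on plate 1 and -0.54 on plate 2, and on plate 1 it lay between -0.49 and 0.05 under other scalings and choices of wells. Apart from MMP9 and ACOD1, given above, no gene of the list reached 4-fold on both plates. tnfa, a cytokine gene, had ratios of -1.13 and -2.47. The 5 genes of heme breakdown, iron export and uptake that the study names were all lower, with medians of -2.58 and -3.21. HMOX1, which encodes heme oxygenase, had 84.3 against 872 CPM on plate 1 and 128 against 1728 on plate 2. Neutrophil wells came mostly from the mCherry- gate and comparison wells mostly from the mCherry+ gate. In wells of the mCherry- gate alone the medians of the 5 genes were -1.75 and -1.55. There 4 of the 5 were lower on both plates and 0 reached 4-fold.

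**Figure D3:**
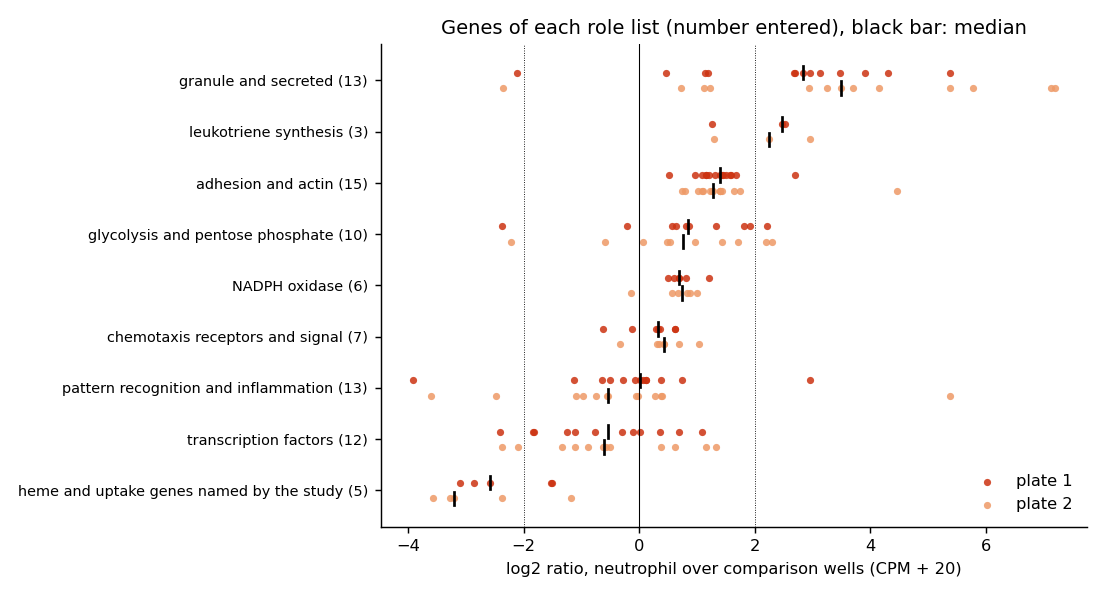
Log2 ratio of neutrophil over comparison wells (mean CPM plus 20) for each gene of 9 role lists, plate 1 in dark and plate 2 in light red, with the median of a list and plate as a black bar and the number of genes compared in parentheses. The granule list, here with lyz, has medians of 2.84 and 3.49 and the heme list -2.58 and -3.21.

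A question that the choice of wells leaves free is whether neutrophil wells of the gates differed from each other. Neutrophil wells of the same plate and gate were added up into 4 sums of 357020 (mCherry+, 23 wells), 484893 (mCherry-, 55 wells), 28300 (mCherry+, 3 wells) and 366140 UMIs (mCherry-, 41 wells), the last pair from plate 2. They were compared with edgeR's quasi-likelihood test with the plate as a block. Of 3979 genes, 50 fell (1.26%) and 34 rose (0.854%) in mCherry+ wells at an adjusted p below 0.05, and 429 had an unadjusted p below 0.05. The calls rest on the block. Without it 0 of 3979 genes passed, with 499 at an unadjusted p below 0.05, and DESeq2 with the block called 12 genes, 12 of them shared with edgeR. Only 1 residual degree of freedom remains among the sums, and 3 UMIs in the small sum of plate 2 already amount to 106 CPM.

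Of 11 genes of pattern recognition and inflammation tested, 5 fell in mCherry+ neutrophil wells and 0 rose, against 1.26% and 0.854% of all genes tested. The median log2 difference of the 11 was -1.87, against -0.10 over all genes tested. The 5 that fell were MMP9, which is also in the granule list, nfkbiaa, nfkbiab, tnfb and tlr5b. The other 6 did not pass, with values from -1.95 for caspa to 0.53 for a copy of SOCS3 (ENSDARG00000025428). MMP9, the gelatinase gene, had a median of 67.8 CPM over the 23 mCherry+ wells of plate 1 (lowest 0, highest 2689) and 3382 over the 55 mCherry- wells (0 to 13912). On plate 2 the 3 mCherry+ wells had 0, 773 and 3770 CPM, and the 41 mCherry- wells had a median of 1884 (0 to 13939). A UMI was found in 15 of 23 mCherry+ and 54 of 55 mCherry- wells of plate 1, and in 27 of 61 macrophage-marker wells of that plate, whose median was 0. The ranges of the gates overlapped, and in the sums MMP9 fell by 2.47 on the log2 scale (SE 0.56, edgeR adjusted p = 0.0017).

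nfkbiaa, which encodes an inhibitor that NF-kB switches on against itself, had a median of 116 CPM in mCherry+ wells of plate 1 (0 to 1842) and 1191 in mCherry- wells (0 to 5815). On plate 2 the 3 mCherry+ wells had 0, 343 and 369 CPM, and the mCherry- wells a median of 1643 (144 to 8251). It fell by 2.58 (SE 0.52, edgeR adjusted p = 1.9e-04). Its paralog nfkbiab fell by 1.87 (edgeR adjusted p = 0.015), with 396 against 1169 CPM in the sums of plate 1 and 389 against 1500 on plate 2. Of the cytokine genes, tnfb was found in 4 of 23 mCherry+ wells and 23 of 55 mCherry- wells of plate 1, and in 2 of 3 and 32 of 41 wells of plate 2. Its sums were 19.6 against 252 CPM and 177 against 623 CPM, and it fell by 3.02 (SE 0.57, edgeR adjusted p = 4.5e-05). tlr5b, a flagellin receptor gene, fell by 3.29 (edgeR adjusted p = 0.012).

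Among the 10 largest falls, tlr5b and tnfb belong to this list, and the other 8 belong to none of the role lists. MAP3K8, a kinase that relays TNF and Toll-like receptor signals, had 0 UMIs in mCherry+ neutrophil wells of either plate, against 61.9 CPM in the mCherry- sum of plate 1 and 76.5 on plate 2. Set against a floor of 3 UMIs in the sum, it was at least 7.36-fold lower on plate 1, and on plate 2 the floor of 106 CPM lay above the mCherry- level. nfkb2, an NF-kB subunit gene, fell by 3.44 (edgeR adjusted p = 0.015), and IL10, an anti-inflammatory cytokine gene, fell by 3.07 (edgeR adjusted p = 0.019). S1PR4, a sphingosine phosphate receptor gene of leukocytes, fell by 3.88 (edgeR adjusted p = 0.0024), and rab44, a Rab GTPase gene, by 3.18. The most certain fall belonged to a gene without a symbol, ENSDARG00000070622, with 95.2 against 966 CPM on plate 1 and 35.3 against 883 on plate 2, which fell by 3.70 (edgeR adjusted p = 1.0e-07). ENSDARG00000007265 and si:ch73-343l4.8 completed the 10. Like MAP3K8, the genes nfkb2, IL10, S1PR4, tlr5b and si:ch73-343l4.8 had 0 UMIs in the mCherry+ sum of plate 2. Their mCherry- levels there were 62.8, 109, 73.7, 117 and 54.6 CPM, below or just above the floor of 106 CPM. In the mCherry+ sum of plate 1 they had 6, 7, 5, 6 and 1 UMIs, and a single well held 85.7% of those of IL10. Outside the rule for naming, and chosen after their values were seen, TNFAIP3 and tnip2, which restrain NF-kB, fell by 2.45 and 2.86. Chosen in the same way, FOS and JUN, genes of the AP-1 transcription factor that cells induce within minutes of a stimulus, rose by 2.52 (edgeR adjusted p = 0.012) and 2.93 (edgeR adjusted p = 0.014). FOS had 1580 against 35.1 CPM on plate 1, with a UMI in 16 of 23 mCherry+ wells, and 212 against 366 CPM on plate 2. In the mCherry+ sum of plate 1 a single well held 49.9% of the FOS UMIs, and a single well held 49.6% of the JUN UMIs. In the mCherry- sum of plate 2 a single well held 73.2% of the FOS UMIs. JUN had 290 against 12.4 CPM on plate 1 and 0 against 30.04 on plate 2, so neither rise was seen on plate 2, where the 3 mCherry+ wells held 6 FOS UMIs and 0 JUN UMIs.

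The protease mmp13a moved with MMP9. Its wells had a median of 613 CPM in the mCherry+ gate of plate 1 (52.2 to 3613) and 6163 in the mCherry- gate (489 to 22887). On plate 2 the 3 mCherry+ wells had 615, 1547 and 6617 CPM, and the mCherry- wells a median of 4475 (222 to 10861). It fell by 1.99 (SE 0.58, edgeR adjusted p = 0.034), and the difference on plate 2 alone was -0.60. TIMP2 (ENSDARG00000075261), an inhibitor of such proteases, fell by 1.97 (edgeR adjusted p = 0.011). Other granule genes did not pass. lyz had a log2 difference of 0.37 (SE 1.00), npsn -0.19 (SE 0.70), srgn 0.38 (SE 0.57), CPA1 -0.05 (SE 0.53) and EPX -0.48 (SE 0.62), with edgeR adjusted p between 0.89 and 0.99. CPA1 and EPX are outside the granule list as matched, which is not complete, since 2 of its 15 names found no gene in the name table. Of the 13 genes of that list tested, 3 fell, MMP9 among them, and 0 rose, against 1.26% and 0.854% of all genes tested. A negative difference was found in 10 of the 13 and a positive one in 3, with a median of -0.44. Those that did not pass included pglyrp5 at -1.82, a copy of LECT2 (ENSDARG00000090889) at -1.22 and adam8a at -0.95. Of the NADPH oxidase, leukotriene, chemotaxis, adhesion and glycolysis lists 0 genes passed in either direction, which does not show that they were unchanged. Of the adhesion and actin genes 15 of 15 had a negative difference, with a median of -0.48, against 55.0% of all genes tested. Other lists leaned the same way. Negative were 6 of 6 NADPH oxidase genes (median -0.68), 3 of 3 leukotriene (-0.72), 5 of 6 chemotaxis (-0.72) and 7 of 9 glycolysis genes (-0.46). Of the transcription factors 4 of 9 were negative and 5 positive.

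**Figure D4:**
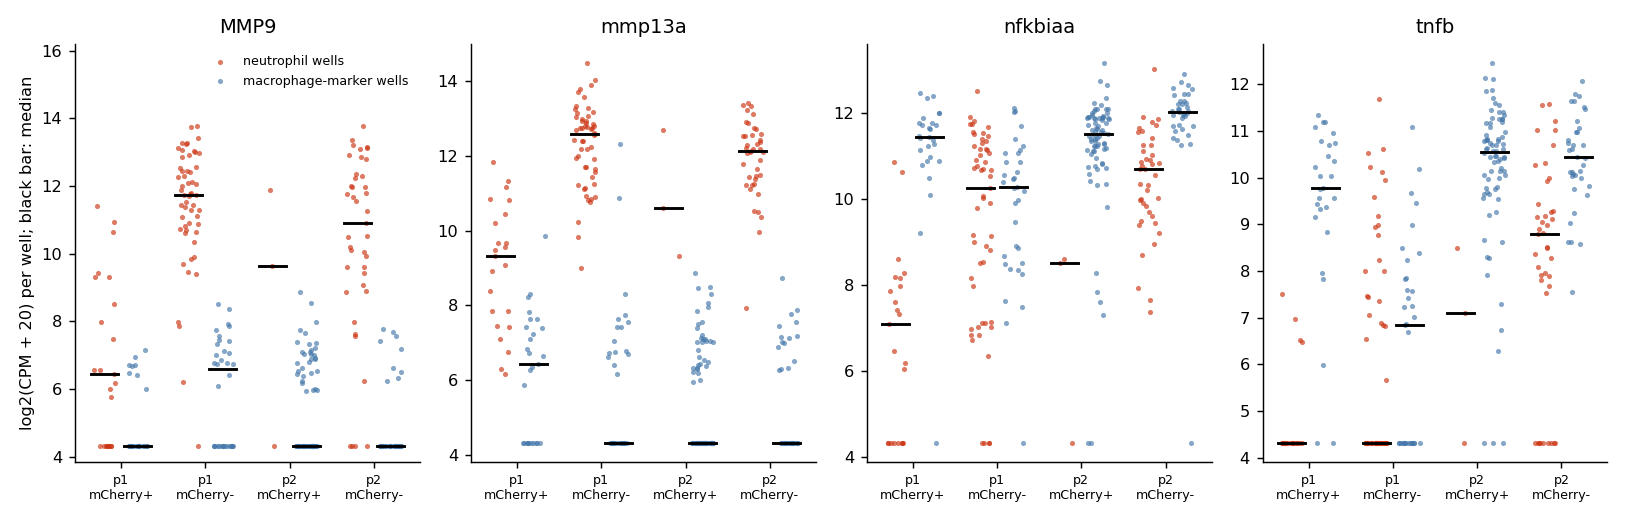
CPM per well, as log2(CPM + 20), of MMP9, mmp13a, nfkbiaa and tnfb in neutrophil wells (red) and macrophage-marker wells (blue) by plate (p1, p2) and gate, with the median as a black bar and each point 1 well. The median of neutrophil wells is lower in the mCherry+ gate in 7 of 8 pairs of gates, and for tnfb on plate 1 both medians are 0.

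The genes that fell were seen in more wells than those that rose. The 50 genes that fell were found in a median of 88 of the 122 neutrophil wells. The well with most UMIs of a gene held a median of 5.23% of them. In 49 of 50 the sign was the same on both plates, but the genes were called from these same plates. For 14 of the 50 the mCherry+ sum of plate 2 held 0 UMIs, where 3 UMIs amount to 106 CPM, and a 0 there gives a negative sign. The 34 that rose were found in a median of 12 wells, for 17 of 34 a single well held over 50% of the UMIs, and 25 of 34 had the same sign on both plates. CKB, a creatine kinase gene named after its values were seen, was among the more widely found, in 21 of 23 mCherry+ wells of plate 1 and 3 of 3 on plate 2. It had 644 against 161 CPM on plate 1 and 742 against 227 on plate 2 and rose by 1.72 (edgeR adjusted p = 0.019). The 10 largest rises were ENSDARG00000086583, apoa2, the keratin genes krt1-19e, krt91 and krt4, COL2A1 (ENSDARG00000011407), aep1, LFNG, ELAVL3 and basp1. In each of them 1 mCherry+ well of plate 1 held between 52.3% and 97.4% of the UMIs, and 5 of the 10 shared the same well, number 148. That well also had 5.62% of its UMIs in a list of epithelial genes and 2.59% in a list of fibroblast genes. ENSDARG00000086583, apoa2, krt4 and ELAVL3 had the opposite sign on plate 2. In all, 10 neutrophil wells had 1% or more of their UMIs in the erythroid, epithelial, muscle, fibroblast or neural list, 2 of them in the mCherry+ gate. Without these 10 wells 53 genes fell and 28 rose.

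Other measures moved with the gates too. The summed share of 24 proliferation genes had a median of 0.233% of UMIs in mCherry+ wells of plate 1 and 0.0792% in mCherry- wells, and 0.0984% and 0.0684% on plate 2. With only the wells at or below 0.1% in the comparison, 29 genes fell and 7 rose. The share of macrophage markers was lower in mCherry+ neutrophil wells, with medians of 0.0410% against 0.121% on plate 1 and 0.0858% against 0.130% on plate 2. The part of these measures in the gate difference was not tested. Leaving out the deepest well of each sum left 18 falls and 7 rises. MMP9, nfkbiaa and tnfb each passed in 8 of 10 alternative settings, and the calls of mmp13a, nfkbiab and TIMP2 held in 6, 4 and 4. Of the largest falls, the calls of MAP3K8 (3 of 9), si:ch73-343l4.8 (3 of 8), nfkb2 (4 of 8) and IL10 (4 of 9) held least often among the settings that tested them, and that of ENSDARG00000070622 held in 9 of 10. Each of these counts includes a setting that left out neutrophil wells with macrophage markers. It removed no well and so repeats the main test.

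The same gates were compared in macrophage-marker wells, and the difference of the differences was tested with edgeR over 8 sums with the plate as a block within each kind of well. Of 5300 genes, the gate difference was more negative in neutrophil than in macrophage-marker wells for 47 (0.887%) and more positive for 10 (0.189%). The mCherry+ neutrophil sum of plate 2 held 0 UMIs for 25 of the 47 and 9 of the 10. A single neutrophil well held over 50% of the neutrophil UMIs for 12 of the 47 and 8 of the 10. The difference within neutrophil wells had the same sign on both plates for 37 of the 47 and 1 of the 10. Here too the block decided the count, which was 1 gene without any plate term and 20 with the plate as a single term.

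tnfb and nfkbiaa were among the 47. In macrophage-marker wells the mCherry+ and mCherry- sums of tnfb were 1055 and 245 CPM on plate 1 and 1609 and 1704 on plate 2, and the interaction was -4.19 (edgeR adjusted p = 9.7e-06). For nfkbiaa the macrophage-marker sums were 2665 and 1457 CPM on plate 1 and 2910 and 4041 on plate 2, and the interaction was -2.95 (edgeR adjusted p = 0.0019). MMP9 and mmp13a had interactions of -2.28 and -1.58 that did not pass (edgeR adjusted p = 0.10 and 0.35). In macrophage-marker wells MMP9 averaged only 56.7 CPM on plate 1 and 44.1 on plate 2. PTGS2 (ENSDARG00000004539), a cyclooxygenase gene, had a more positive difference (7.91, edgeR adjusted p = 0.040) that rests on 11 UMIs in mCherry+ neutrophil wells of plate 1 and 0 in the other sums of neutrophil wells.

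Heme and iron genes also separated the kinds of wells. Of the 5 genes that the study names, 3 had a more negative gate difference in neutrophil wells. The study named the 5 as markers of macrophages that had engaged HSPCs, from single cells of this sort. A higher level in mCherry+ macrophage-marker wells was therefore built into the choice of these genes. Their interaction is no independent result, whichever list chose the wells. HMOX1, SLC40A1 and c1qa are also in the list that chose the macrophage-marker wells, so these wells were chosen in part by them. HMOX1 stood at 5711 and 973 CPM in mCherry+ and mCherry- macrophage-marker wells of plate 1 and at 4094 and 446 on plate 2. In neutrophil wells it stood at 33.6 and 84.6 CPM on plate 1 and at 141 and 112 on plate 2, and the interaction was -3.91 (edgeR adjusted p = 8.8e-05). SLC40A1, the iron exporter ferroportin, had an interaction of -3.81 (edgeR adjusted p = 8.9e-04), with 19.6 against 63.9 CPM and 35.3 against 71.0 CPM in neutrophil wells. ctsl.1, a cathepsin L gene, had -3.65 (edgeR adjusted p = 0.011). In a setting added after seeing the data, macrophage-marker wells were chosen by the list without HMOX1, SLC40A1 and c1qa, which left 167 wells. The interaction was then -4.00 for HMOX1, -3.77 for SLC40A1 and -3.50 for ctsl.1 (edgeR adjusted p = 6.1e-05, 9.3e-04 and 0.016). In the neutrophil test itself 3 of the 5 were abundant enough to be tested and 0 passed.

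Neutrophil wells of the mCherry- gate were alike on the plates. Of 5964 genes with a UMI in at least 10% of the wells of either plate, 11 were 4-fold or more higher on plate 2 (0.184%) and 1 on plate 1 (0.0168%). These values are a description of 2 plates, with no test. The largest differences belonged to embryonic hemoglobin genes. hbae3 averaged 62.7 CPM on plate 1 and 831 on plate 2, but 1 well of plate 2 held 97.9% of its UMIs there. HBE1 (ENSDARG00000087390) had 43.5 and 595 CPM, and the same well, number 225, held 98.9%. Comparison wells of the gate also had more hbae3 on plate 2, with 150 and 3247 CPM. In the other direction col1a1a, a collagen gene, averaged 458 CPM on plate 1 and 67.2 on plate 2. It was detected in a similar share of wells, 36.4% and 31.7%. In well 214 of plate 1 the fibroblast list, which includes col1a1a, took 2.12% of UMIs. The highest mCherry- neutrophil well of plate 2 had 0.0634%. The part of well 214 in the col1a1a mean was not tested. After col1a1a came UBALD1 (99.1 and 11.6 CPM), KPNA6 (68.6 and 5.66 CPM), ENSDARG00000027852 (558 and 148 CPM) and GPR183, a receptor gene for oxysterols (269 and 65.5 CPM).

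Within a plate, with both gates pooled, the neutrophil wells varied most in a handful of genes by variance over mean. This measure grows with the level of a gene, so abundant genes rank high. The 116 wells with at least 2000 UMIs were thinned to 2000 UMIs each, 75 on plate 1 and 41 on plate 2, and 6 shallower wells were left out. Of 866 genes with a UMI in at least 20% of these wells on each plate, the median variance over mean was 1.18 on plate 1 and 1.12 on plate 2, close to the value of 1 that counting alone gives. It was above 2 on both plates for 46 genes. ENSDARG00000080337, which has no symbol, led with 80.3 and 33.5, followed by lyz with 29.1 and 28.5, actb2 with 33.1 and 17.4, and ENSDARG00000070212 with 11.6 and 9.19. The heat shock gene hsp70l had 8.69 and 9.04. Over all neutrophil wells of a plate, without thinning, its 10th, 50th and 90th percentiles were 2195, 7189 and 16442 CPM on plate 1 and 8801, 15334 and 27054 on plate 2. MMP9 had 9.43 and 8.46. On the same scale its 10th and 90th percentiles were 0 and 8365 CPM on plate 1 and 16.4 and 8895 on plate 2, and it was seen in 73.3% of thinned wells on plate 1 and 73.2% on plate 2. HSPB1, a small heat shock protein gene, was seen in 50.7% and 48.8%. The last 3 places went to ENSDARG00000093817, si:dkey-238c7.12 and actb1.

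Granule genes differed in how they varied with lyz. Over the thinned wells Spearman's rho of lyz with srgn was 0.64 on plate 1 (75 wells) and 0.58 on plate 2 (41 wells), and with npsn it was 0.22 and 0.50. With mmp13a it was -0.33 and -0.49 and with MMP9 -0.42 and -0.46, so wells rich in lyz tended to hold less of these proteases. With EPX it was -0.10 and 0.06. These values describe wells that share a plate and in which a high share of lyz leaves less room for other genes, and the gates are mixed in them. In the plot of protease levels against lyz the mCherry+ wells lie low for mmp13a and MMP9 over the whole range of lyz on plate 1.

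**Figure D5:**
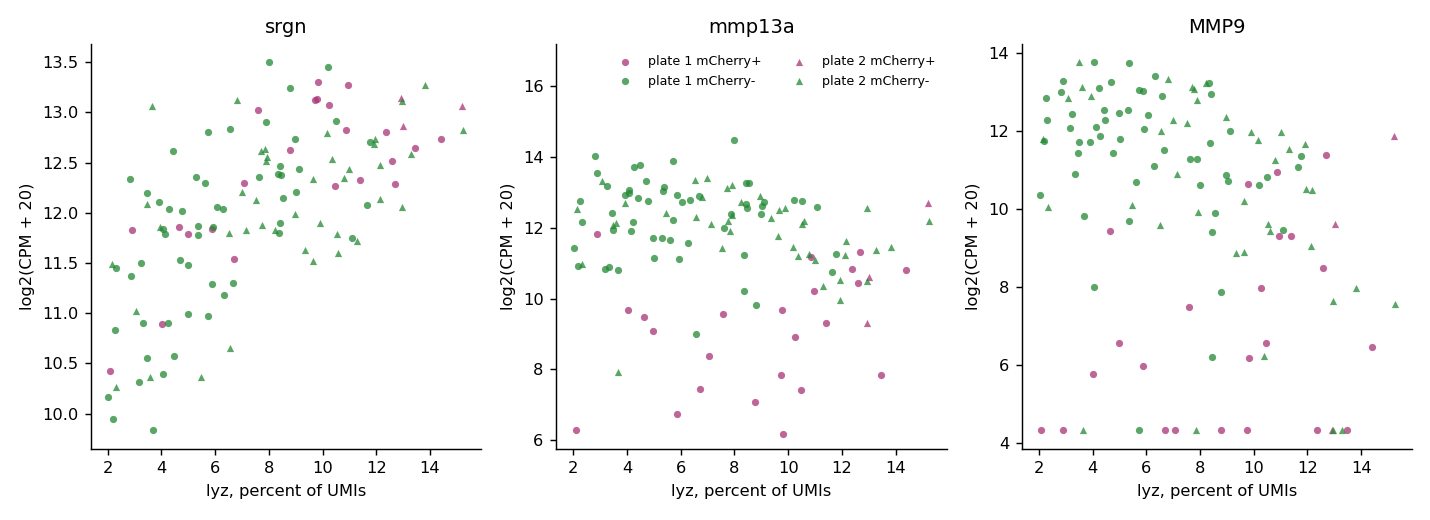
Level of srgn, mmp13a and MMP9, as log2(CPM + 20), against lyz as percent of UMIs in each of the 122 neutrophil wells, with plates as circles and triangles and gates in color. srgn increases with lyz, and the proteases decrease. In mmp13a the median mCherry+ well of plate 1 has 613 CPM and the median mCherry- well 6163.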

How the data were processed

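RNA of single sorted cells was measured by SORT-seq, 1 cell per well, on 2 plates. The authors deposited 1 table of genes by wells per plate. Its values are expected counts, made by the authors from the numbers of distinct UMIs by correcting for molecules that draw the same tag. With a tag of 6 bases this correction gives every nonzero value to within 0.005. In neutrophil wells it added 16.1% of the lyz UMIs on plate 1 and 12.9% on plate 2, and 2.39% and 2.01% over all genes. The submitters' processing notes name BWA, Seurat and GRCz11 without versions or roles, and the gene annotation is not given in the sources used here. Depth over all wells was 3266490 UMIs on plate 1 and 2962590 on plate 2. Spike-in RNAs (1.13% of counts) and 234 wells below the minimum were left out, and 0 columns of other samples were met. The plates share 384 well labels, which are positions, and 0 wells had identical values.

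A table of zebrafish gene names gave symbols to 17425 of 22342 identifiers, some in the human style. Neutrophil wells, gene lists and tests were chosen with earlier results of these data known. The named genes are members of the role lists and, by rule, the 25 highest and 10 lowest in the main comparison, the 10 largest rises and falls between gates with at least 50 UMIs in at least 5 wells, the 10 most variable genes and 5 genes per direction between plates. For tests, UMIs were summed per plate and gate, rounded and passed through filterByExpr and TMM scaling before the quasi-likelihood test of edgeR 4.0.16 (R 4.3.3) with Benjamini-Hochberg adjustment over all genes tested, and DESeq2 1.42.0 was an alternative. Standard errors were taken from the fold change and its F value. The labels state that both gates were placed on each plate because of batch effects, so the plate was a block. Plate deviations of the gates did not correlate (r = -0.01 over 3979 genes). Wells are not replicates, and intervals cover counting error only. The p-values measure how the gate difference varied between 2 plates once the level of each plate was taken out, with estimates of spread shared across genes. Wells were sorted singly and doublets were not called. Some neutrophil wells also held markers of other cell types, as given above, and the source of these was not tested. The tests were run on simulated data first. Python 3.11.15 with numpy 2.4.6 and pandas 2.3.3 did the rest.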

Additional observations from a re-analysis of the deposited data

Results flagged for a closer look

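The following genes had a gate difference in neutrophil wells that differed from that in macrophage-marker wells by the interaction test of edgeR. Values are the log2 difference mCherry+ minus mCherry- in neutrophil wells minus the same in macrophage-marker wells. Hemoglobin genes and cahz, a carbonic anhydrase gene, led the negative side, with -8.53 for cahz, -7.76 for HBE1 (ENSDARG00000045143), -7.54 for hbae1.3 and -4.91 for hbbe3. For HBE1, 1 mCherry- neutrophil well held 99.5% of the UMIs of its sum on plate 2, and 1 mCherry+ macrophage-marker well held 97.9% of those of its sum on plate 1. The same neutrophil well, number 225, held 87.3% of all neutrophil-well UMIs of cahz, 95.7% of hbae1.3, 94.1% of hbbe3 and 89.6% of ENSDARG00000044212. For and1, mCherry- well 214 of plate 1 held 70.8%. The other negative values were -6.99 for and1, -6.64 for ENSDARG00000044212, -6.93 for MAP3K8, -4.26 for S1PR4, -4.19 for tnfb and -4.15 for rab11fip1b. On the positive side were ENSDARG00000086583 with 5.75, krt1-19e with 4.90, mfap4.8 with 4.69, apoa2 with 4.21, egr1 with 3.79 and GAMT with 3.49. In these 6 genes 1 well held between 43.2% and 99.4% of the UMIs of the mCherry+ sum of plate 1.

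Outside the kept wells, 11 of 234 wells with fewer than 500 UMIs or 200 genes had more than 3 lyz UMIs at 2% or more of their UMIs, 4 in the mCherry+ and 7 in the mCherry- gate. They held between 66.0 and 437 UMIs.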

How the results depend on the processing

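The 122 neutrophil wells and the gate shares kept their order under every alternative run. Alone, plate 2 held 44 and plate 1 held 78. With lyz at 5% or more, 87 wells remained and the mCherry- share of plate 1 dropped to 21.2%, beside 12.6% in its mCherry+ gate. The number of genes at least 4-fold apart, 176 in all, moved to 305 against macrophage-marker wells, 407 and 48 with 5 and 100 CPM added, and ranged from 222 on plate 1 alone to 353 on plate 2 alone. The gate test called 84 genes. The count was 12 with DESeq2, 39 without the filter, 25 without the deepest wells, 5 after thinning to 2000 UMIs (877 genes tested), 50 with lyz at 5% or more, 36 in wells with few proliferation genes and 0 without the replicate block. The interaction count of 57 became 20 with the plate as a single term, 1 without the replicate block, 33 without the filter and 18 with macrophage markers at 2% or more. With 1 plate a gate difference has no test. Among the 10 largest rises, the 10 largest falls and the role list members that passed, the sign then turned for 4 genes. The range was -0.18 to 6.23 for ENSDARG00000086583, -0.50 to 6.25 for apoa2, -2.001 to 5.76 for krt4 and -1.54 to 3.58 for ELAVL3. FOS and JUN, outside these sets, turned as well. Over all called genes, 49 of 50 falls and 25 of 34 rises had the same sign on both plates. With macrophage markers at 2% the interaction was -0.81 for apoa2 and -2.68 for egr1. Leaving out the 10 wells with markers of other cell types, an alternative chosen after seeing the data, gave 81 and 58. Macrophage-marker wells chosen without heme genes, also added then, gave 63 in the interaction. The cause of these changes was not tested. No neutrophil well reached 1% macrophage markers, so leaving such wells out changed nothing. Depth also limits the gate test, since the mCherry+ sum of plate 2 holds 3 wells and 28300 UMIs.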
